A study of Saccharomyces cerevisiae with 112 samples.

Results

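Unlabelled mRNA after 30 min without glucose was measured in 4 SLAM-seq chase libraries of Saccharomyces cerevisiae, 2 taken at 30 min and 2 at 0 min. They were chosen by their titles, which give the glucose condition, the chase time and the replicate number, and they are 4 of the 28 chase libraries, of 40 libraries with files and of 112 samples in all. All chase cells were of the strain KWY165, whose genotype is not described in those titles, and the only stated difference between the chase groups is the presence of glucose and the time. The other chase libraries (5, 10, 15, 20 and 45 min without glucose, and 7 times with glucose) served for the spread, the course and the background, and total RNA and polysome libraries of a strain named KWY11376 for comparison. The titles of the KWY11376 libraries also differ in labelling, given as 30 min of the label 4TU with glucose and as post-labeling 4TU without it. Most of the 5560 yeast features are windows at the 3′ end of a gene. For each, the unlabelled reads (all reads minus reads with T-to-C conversions) were set against the reads of a bacterial spike-in in the same library.

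In SLAM-seq, cells take up a thiol-bearing uracil that enters new RNA, and after alkylation reverse transcription reads the labelled bases as C instead of T. In a chase the label is then replaced by ordinary uracil, so that copies made later are meant to yield reads with no conversion, while older copies keep their label. When yeast loses glucose it is known to shut down ribosome production, to release glucose-repressed genes and to turn on a stress programme under Msn2 and Msn4, the activators that protein kinase A holds back while glucose lasts. The sources used here do not give the dose of label, the length of the pulse, the start of the chase or the step at which the spike-in entered. A read without a conversion can also come from a labelled copy, and reads with a conversion made up 62.6% and 62.3% of the reads of the 2 libraries at 0 min.

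The 4 libraries held 4798487 and 7786501 yeast reads at 0 min and 5848932 and 7365826 at 30 min, with 52729, 97110, 114646 and 133766 spike-in reads in the same order. Of the spike-in reads, which carry no label, 0.407% to 0.472% were counted as converted. Between replicates the variance of unlabelled reads was 5.69 times the counting variance at 0 min and 11.8 times at 30 min, in medians over genes. Of the mating-type markers, the a-specific MFA2, which encodes a-factor, had 26.4 and 20.01 unlabelled reads per 1000 spike-in reads at 0 min, and the alpha-specific receptor gene STE3 had 0.0759 and 0.144. The labels do not say whether replicates came from separate cultures, and p-values therefore speak only of the spread between these samples, which may be technical.

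The sum of all unlabelled reads fell slightly over 30 min without glucose, and that of labelled reads fell by more. Unlabelled reads stood at 34.0 and 30.2 per spike-in read at 0 min and 27.5 and 28.6 at 30 min, a ratio of the means of 0.873, and both libraries at 30 min were below both at 0 min. Labelled reads fell from 57.0 and 49.99 per spike-in read to 23.5 and 26.5, a ratio of 0.468. The labelled share of reads thus fell from 62.6% and 62.3% to 46.2% and 48.1%. An exact test of 2 libraries against 2 cannot give a p below 0.333. All yeast reads fell from a mean of 85.6 to 53.0 per spike-in read, and in such bulk samples fewer cells and less mRNA per cell cannot be told apart.

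The genes that made up the unlabelled pool changed far more than its sum. Of 5458 genes tested, 1542 rose in unlabelled reads per spike-in read (28.3%) and 1757 fell (32.2%) in edgeR's quasi-likelihood test at a Benjamini-Hochberg adjusted p under 0.05. The rise was at least 2-fold for 1153 genes and at least 8-fold for 258, and the fall at least 2-fold for 1258 and at least 8-fold for 56. The genes that rose made up 10.9% and 9.95% of the unlabelled reads at 0 min and 48.3% and 48.1% at 30 min, and those that fell went from 66.5% and 68.5% to 26.6% and 28.05%. In all reads per spike-in read, labelled and unlabelled together, 967 genes rose (17.5%) and 2869 fell (52.0%). Both libraries at 30 min were above both at 0 min for 2154 genes (39.5%) and below both for 2378 (43.6%). These shares of the reads describe genes picked by the same values and are no further test. The median change over all genes tested was -0.06 on the log2 scale, and 0.06 with TMM factors and 0.63 with the totals of yeast reads in place of the spike-in.

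**Figure D1:**
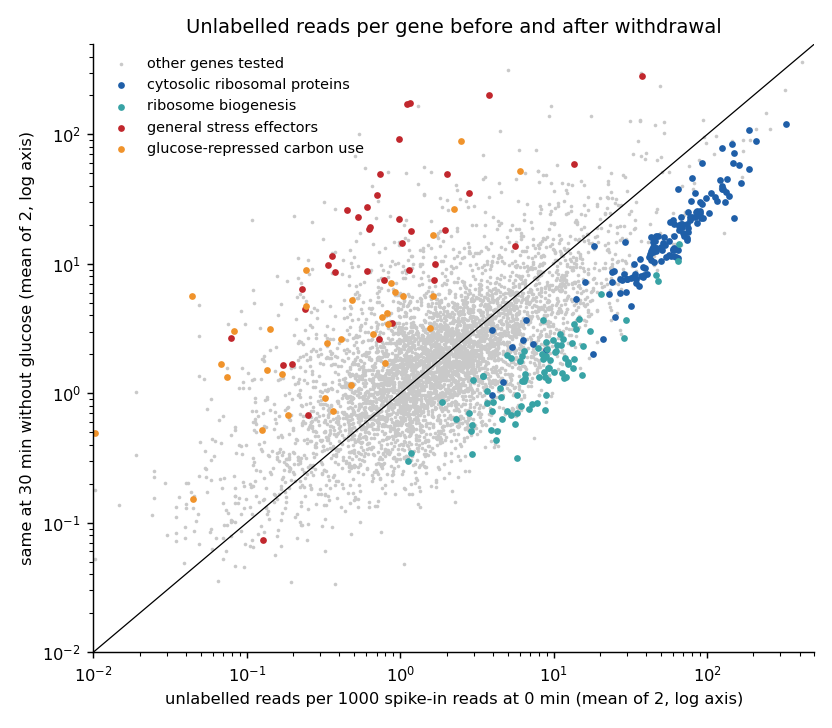
Unlabelled reads per 1000 spike-in reads at 0 min (x, log axis) and at 30 min without glucose (y, log axis), 1 point per gene, each the mean of 2 libraries, with ribosome, stress and carbon genes in colour and the line of no change drawn. Of the coloured genes, 36 of 37 general stress effectors (HUG1, at -0.68, is the exception) and 33 of 33 glucose-repressed genes lie above the line and the ribosomal genes below it, among 1542 genes that rose and 1757 that fell.

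The steepest rises were of genes for low-glucose sugar uptake and for stress and mitochondrial proteins, which had next to no unlabelled reads at 0 min. HXT6, a high-affinity hexose transporter (3′ window on chromosome IV, 1159070 to 1159858, minus strand, in the files' coordinates), had 0.55 and 0.525 unlabelled reads per 1000 spike-in reads at 0 min and 94.1 and 108 at 30 min. Its log2 change was 7.56 ± 0.35 (SE; adjusted p = 8.84e-98, edgeR), or 188-fold. Libraries that do not overlap between the times were a condition for naming the steepest rises and falls, so their separation is not a result. HXT6 and its neighbour HXT7 are near-identical genes, so reads may be split between them, although 0.0809% of the HXT6 reads were counted as multimapped.

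YNL194C, a plasma membrane protein of the eisosome family (chromosome XIV, 272288 to 272960, minus strand), rose from 0.114 and 0.103 unlabelled reads per 1000 spike-in reads to 20.5 and 22.9, a log2 change of 7.64 ± 0.39. RGI1, a protein of respiratory growth (chromosome V, 292302 to 292842, plus strand), rose from 1.29 and 0.916 to 186 and 157, and TMA10, a ribosome-associated stress protein (chromosome XII, 782740 to 783377, minus strand), from 1.25 and 1.05 to 165 and 185. HXK1, the hexokinase that glucose represses (chromosome VI, 253324 to 253842, minus strand), rose from 1.48 and 1.13 to 161 and 170, or 128-fold. MPC3, a subunit of the mitochondrial pyruvate carrier, rose 140-fold, POT1, the peroxisomal thiolase of fatty acid oxidation, 135-fold, AIM17 118-fold, PHM7 100-fold and EGO4 96.5-fold.

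**Figure D2:**
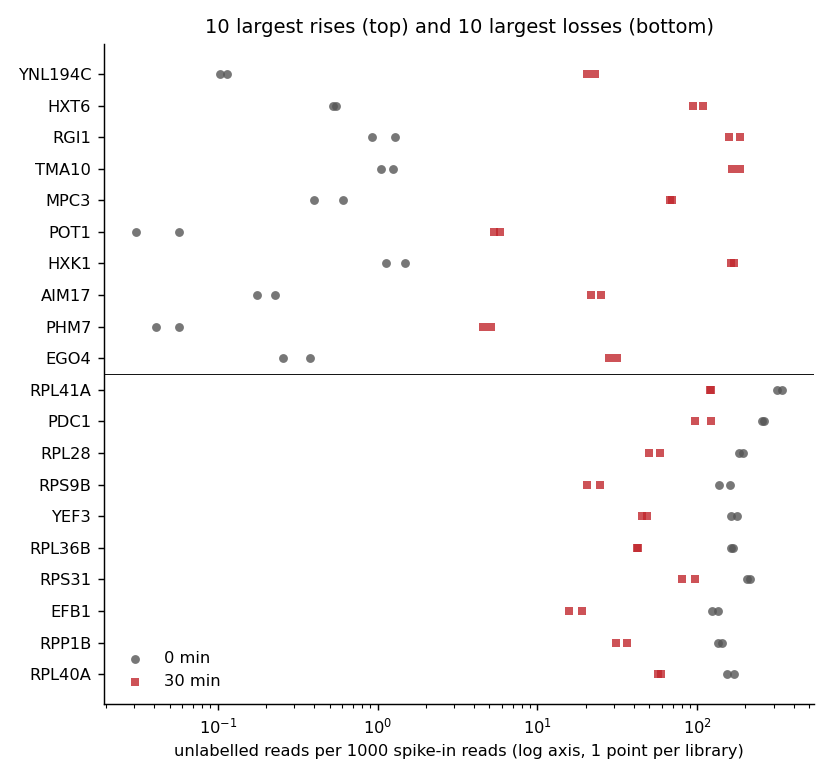
Unlabelled reads per 1000 spike-in reads (x, log axis) of the 10 genes with the steepest rise (top) and the 10 with the largest loss in amount (bottom), 1 point per library at 0 and 30 min without glucose. The genes were chosen among those whose libraries do not overlap between the times. HXT6 goes from 0.55 and 0.525 to 94.1 and 108, and RPL41A from 339 and 316 to 122 and 120.

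The gain in amount was concentrated in few genes. Summed over the genes whose mean level was higher at 30 min, the gain was 10.8 unlabelled reads per spike-in read, and the 10 genes with the largest gain gave 18.6% of it and 85 genes 50% of it. HXT7 gained most: it had 5.94 and 4.06 unlabelled reads per 1000 spike-in reads at 0 min and 286 and 347 at 30 min. SPO24, a short gene known from sporulation, went from 47.6 and 26.9 to 314 and 285, and HOR7, a small hyperosmolarity-responsive protein, from 41.1 and 34.4 to 273 and 295. HSP12, a small membrane-binding stress protein, rose from 4.82 and 2.79 to 199 and 205, and AHP1, a thiol peroxidase, from 54.8 and 43.8 to 199 and 276. HXT2, another high-affinity transporter, gained as well (11.2 and 7.96 to 149 and 185), and so did NCE103, the carbonic anhydrase (10.6 and 7.98 to 149 and 128). The other 3 of the 10 largest gains were HXK1, TMA10 and RGI1.

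Of 37 general stress effectors, 36 rose and none fell, with a median log2 change of 4.30 against -0.06 over all genes; the exception was HUG1, a DNA damage gene (-0.68, not past the threshold). Beside HSP12 and TMA10 they included CTT1, the cytosolic catalase (5.96), DDR2 (5.64), and PGM2, phosphoglucomutase (5.49). All 33 glucose-repressed genes of carbon use rose, with a median of 2.97. Those for acetate, ethanol and lactate rose most steeply in the list after POT1: ADY2, the acetate permease, by 5.31, ALD4, mitochondrial aldehyde dehydrogenase, by 5.15, JEN1, the lactate permease, by 5.12, and ADH2, which oxidises ethanol, by 5.10. PCK1 and FBP1, the gluconeogenic enzymes, rose by 1.12 and 1.68.

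Glycogen and trehalose genes rose in 21 of 23 cases, with a median log2 change of 3.69, beside 28.3% higher of all genes tested. GPH1, glycogen phosphorylase, had 0.588 and 0.587 unlabelled reads per 1000 spike-in reads at 0 min and 56.5 and 53.5 at 30 min, and IGD1, an inhibitor of glycogen debranching, went from 0.891 and 0.412 to 42.3 and 38.3. Enzymes that build the stores and enzymes that break them down both rose: GSY1 and GSY2, the glycogen synthases, by 5.06 and 4.36, TPS1 and TPS2 of trehalose synthesis by 3.69 and 4.60, and the trehalases NTH1 and ATH1 by 3.09 and 2.54. PGM1 (-0.27) and PIG1 (0.97) did not pass the threshold. Of 18 genes of hexose transport and phosphorylation tested, 13 rose and 1 fell, beside 28.3% and 32.2% of all genes tested. The one that fell was HXT1, the low-affinity transporter of glucose-rich cells, at -0.64, and with TMM factors or library totals it was not called lower. None of the 18 was called lower without replicate 1 or replicate 2 at 0 min or without replicate 1 at 30 min. RGT2, the sensor of high glucose, rose by 0.79, against 2.85 for SNF3, the sensor of low glucose.

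**Figure D3:**
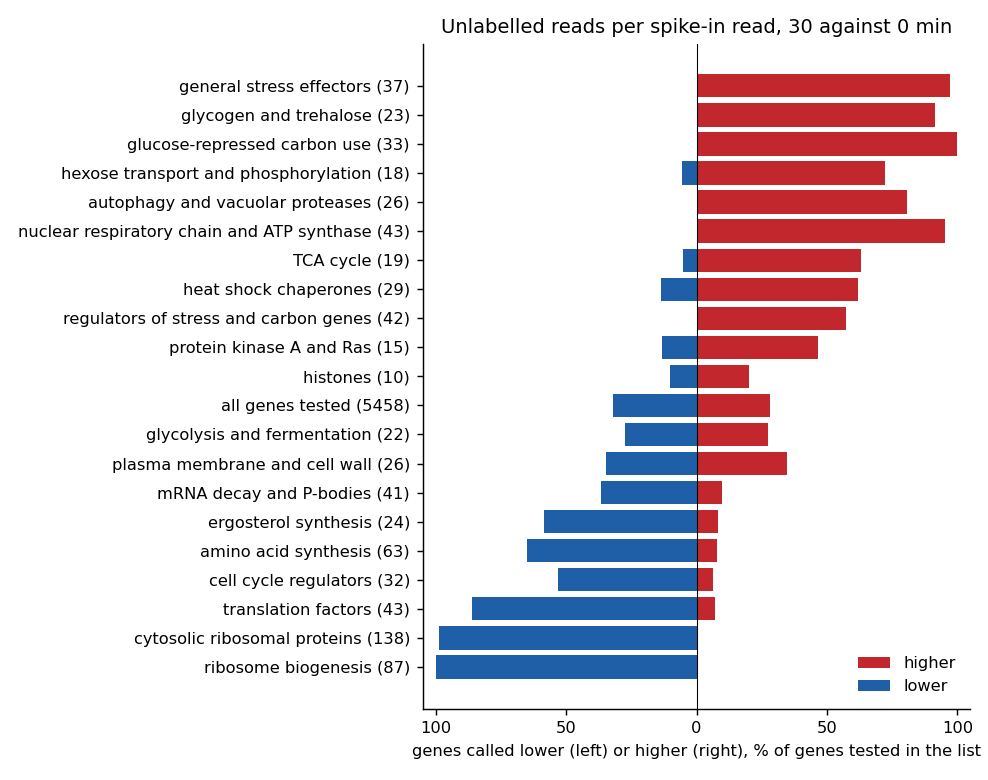
Share of the genes tested in each list that were called higher (right) or lower (left) in unlabelled reads per spike-in read at 30 against 0 min. General stress, glucose-repressed and respiratory genes lie almost wholly on the right (36 of 37, 33 of 33 and 41 of 43), and ribosome biogenesis (87 of 87) and ribosomal proteins (136 of 138) on the left.

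Respiration rose in smaller steps. Of 43 nuclear genes for ATP synthase and the respiratory chain, 41 rose, with a median log2 change of 1.56. The steepest were CYC7, the cytochrome c isoform of low oxygen, from 1.06 and 0.896 unlabelled reads per 1000 spike-in reads to 83.6 and 101, and STF2, a stabiliser of the ATP synthase inhibitor, from 0.797 and 0.669 to 48.0 and 51.8. Subunits of ATP synthase rose by less, ATP1 by 0.88 and ATP2 by 0.60. Of 19 TCA cycle genes 12 rose, 1 fell and 6 were not called, beside 28.3% higher and 32.2% lower of all genes tested. CIT2, the peroxisomal citrate synthase, rose 12.7-fold, and SDH1, a subunit of succinate dehydrogenase, 9.80-fold.

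Autophagy genes and vacuolar proteases rose in 21 of 26 cases, with a median log2 change of 2.00 and no fall. Of all genes tested 28.3% rose and 32.2% fell. ATG8, the protein that coats autophagosomes, had 1.01 and 0.947 unlabelled reads per 1000 spike-in reads at 0 min and 14.2 and 15.4 at 30 min, and PRB1, vacuolar protease B, 1.44 and 0.989 and then 9.69 and 10.3. Among 42 regulators of stress and carbon genes, 24 rose and none fell. CAT8 and ADR1, activators of gluconeogenic and ethanol genes, rose by 5.80 and 3.92, and MSN4 and MSN2 by 1.93 and 1.04. SNF1, the kinase of glucose derepression, rose by 0.71, and MIG1, the repressor that it switches off, had a change of 0.84 that did not pass the threshold. With the totals of yeast reads in place of the spike-in, 37 of the 42 were called higher, beside 2826 of all 5458 genes tested.

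Of 15 genes of the protein kinase A pathway 7 were higher and 2 lower, beside 28.3% and 32.2% of all genes tested. With totals of yeast reads 12 were higher, beside 2826 of all 5458 genes tested. TPK2, a catalytic subunit, rose from 1.29 and 1.09 unlabelled reads per 1000 spike-in reads to 10.8 and 12.1, while TPK3, another catalytic subunit, fell by 2.14 on the log2 scale. RAS2 rose by 1.70 and RAS1 fell by 2.29. Of 29 heat shock chaperones 18 rose and 4 fell, with a median of 1.03, beside 28.3% and 32.2% of all genes tested. With totals 24 of them rose and 2 fell, beside 2826 and 1046 of all 5458 genes tested. HSP42, a small heat shock protein, went from 1.19 and 0.978 to 46.5 and 54.7, HSP104, the disaggregase, rose by 4.32, and HSP82 by 3.01. The 4 that fell were SSB1 and SSB2, the Hsp70 proteins that bind nascent chains on the ribosome (-1.86 and -2.07), YDJ1 (-1.12) and HCH1 (-0.63).

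The genes that rose at least 8-fold in unlabelled reads mostly built up labelled ones too. Of the 258 genes that rose at least 8-fold in unlabelled reads, 249 were called higher in labelled reads per spike-in read as well and none lower, where 9.39% of all genes tested were higher and 70.9% lower. Their median log2 change was 3.82 in unlabelled and 2.35 in labelled reads. Both pools come from the same 4 libraries, so this is a description and not a second test. HXT6 had 0.759 and 0.515 labelled reads per 1000 spike-in reads at 0 min and 59.6 and 72.9 at 30 min, a 107-fold rise, and HSP12 3.68 and 2.68 and then 79.1 and 84.3. TMA10 rose 138-fold in labelled and 153-fold in unlabelled reads. Most of the genes that rose in unlabelled reads were not called higher in labelled ones. Of 1540 tested there 512 were higher and 237 lower, with a median log2 change of 0.12. Summed over all genes that rose in unlabelled reads, labelled reads went from 6.32 and 5.08 to 8.46 and 9.19 per spike-in read, whereas over all genes they fell.

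**Figure D4:**
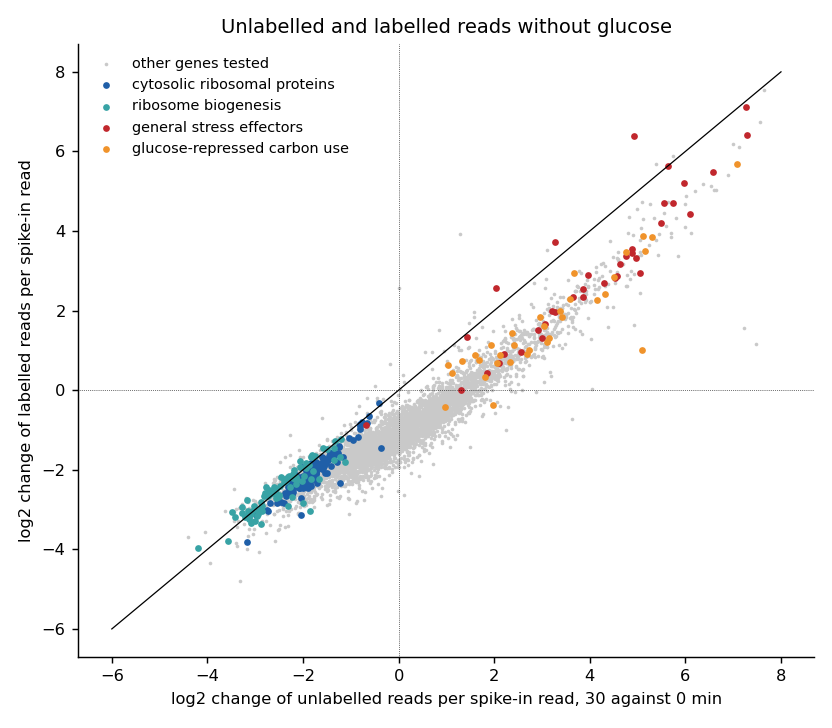
Log2 change of unlabelled (x) and of labelled reads (y) per spike-in read at 30 against 0 min without glucose, 1 point per gene, with gene groups in colour and the line of equal change drawn. Most strongly risen genes lie above 0 on both axes and below the line (medians 3.82 and 2.35 for the 258 genes), while RGI2 and HSP30 lie above the line. Ribosome biogenesis genes lie near the line in the lower left (medians -2.40 and -2.42).

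The course showed when label entered the genes that rose at least 8-fold. Summed over the 258 genes, labelled reads were 0.492 and 0.349 per spike-in read at 0 min, 0.684 and 0.567 at 5 min, 1.39 and 1.06 at 10 min, 2.81 and 2.78 at 20 min and 2.99 and 3.29 at 30 min. Unlabelled reads went from 0.310 and 0.223 at 0 min to 1.34 and 0.929 at 10 min and 5.01 and 5.26 at 30 min. The labelled share of their reads was 61.4% and 61.0% at 0 min, 61.9% and 59.7% at 5 min, 51.0% and 53.4% at 10 min, 37.4% and 38.5% at 30 min and 29.3% and 31.3% at 45 min. At 5 min, when both pools had grown, the share was thus where it had been at 0 min. In the courses with glucose the share for the same genes was 56.5% and 57.2% at 0 min, 43.9% and 46.2% at 5 min and 19.1% and 19.4% at 30 min. The source of the label in these reads was not tested.

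In these genes the fall of the labelled share was smaller than the gain in copies. For the 258 genes a median of 88.6% of the reads at 30 min lay beyond the level at 0 min, but the labelled share had fallen by a median of 41.0% of its value at 0 min, from 60.2% to 35.0%. For HXT6, 99.3% of the reads at 30 min lay beyond the level at 0 min, and its labelled share was 58.0% and 49.5% at 0 min and 38.8% and 40.2% at 30 min. YNL194C had a share of 33.3% and 37.5% at 0 min, from 9 and 16 reads, and of 34.0% and 34.8% at 30 min. Over 5245 genes with enough reads the share fell by a median of 29.5%, by more than 50% for 144 genes, by more than 90% for none and by less than 10% for 727. Among the genes called higher with at least 500 reads in each library at 30 min, the share fell most for GIP2, a phosphatase regulator of glycogen (51.9% and 60.5% to 22.2% and 23.6%), and for MTH1, the corepressor of hexose transporters (63.8% and 55.0% to 24.4% and 24.6%). MRK1, YPS6 and YMR206W followed.

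**Figure D5:**
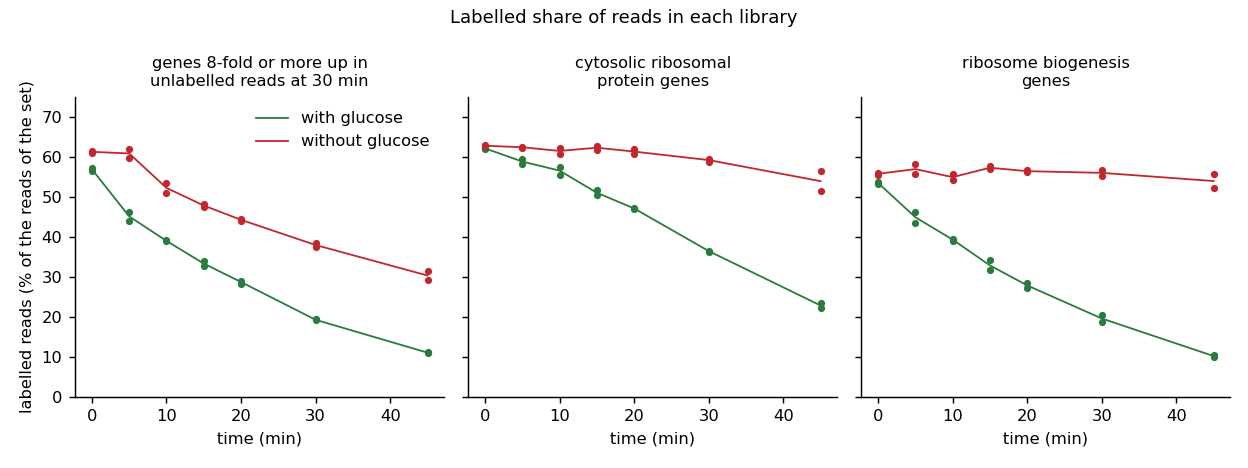
Labelled reads as a percentage of all reads (y) against chase time in minutes (x) for sets of genes, 1 point per library, without and with glucose. Without glucose the strongly risen genes fall from 61.4% and 61.0% to 37.4% and 38.5% at 30 min while ribosome biogenesis stays at 55.1% and 56.8%; with glucose they fall to 19.1% and 19.4%, and to 18.7% and 20.4%.

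Genes of ribosome assembly fell in both pools. All 87 ribosome biogenesis genes fell in unlabelled reads per spike-in read, with a median log2 change of -2.40, and all 87 fell in labelled reads, with a median of -2.42. Their sum went from 0.907 and 0.938 unlabelled reads per spike-in read at 0 min to 0.171 and 0.172 at 30 min and 0.0780 and 0.0768 at 45 min. Both pools shrank in step, so the labelled share was 56.0% and 55.4% at 0 min, 55.1% and 56.8% at 30 min and 52.1% and 55.7% at 45 min. With glucose the share of the same genes went from 53.2% and 53.6% to 18.7% and 20.4% at 30 min. In the edgeR test of the odds of labelled against unlabelled reads, which needs no spike-in, 4271 of 5245 genes were lower at 30 min (81.4%) and 8 higher (0.153%). Of the 87 ribosome biogenesis genes 77 were not called, 9 were lower and 1 was higher, with a median log2 change of odds of 0.03 against -1.05 over all genes. Leaving out 1 library at a time gave 4 to 7 lower and 0 to 3 higher, and the fit of the 4 compared libraries alone 10 lower and 5 higher.

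RPA12, a subunit of RNA polymerase I (chromosome X, 555323 to 555931, plus strand), had the steepest fall. It had 5.48 and 6.11 unlabelled reads per 1000 spike-in reads at 0 min and 0.331 and 0.299 at 30 min, a log2 change of -4.20 ± 0.32 (SE; adjusted p = 1.11e-37, edgeR), or 18.4-fold lower. Its labelled share was 63.6% and 60.1% at 0 min and 65.8% and 65.2% at 30 min. NOP1, the fibrillarin that methylates ribosomal RNA (chromosome IV, 428098 to 428785, plus strand), fell from 30.6 and 26.4 to 2.34 and 2.97, and the share was 67.7% and 66.8% and then 72.5% and 69.2%. NOP1 fell through the whole course, from 16.1 and 12.8 at 10 min to 1.27 and 1.25 at 45 min, and with glucose it was at 78.7 and 60.9 at 30 min. The other steep falls were RPC19, a subunit shared by RNA polymerases I and III (16.5-fold), ALB1 (11.8-fold), RRS1 (11.1-fold), TSR2 (10.96-fold), RIX7 (10.9-fold), REX4 and NRP1 (both 10.6-fold) and ADF1 (10.4-fold). ADF1 overlaps a gene on the opposite strand, and whether the counting used strand is not stated.

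Ribosomal protein genes made up 28.3% and 29.6% of all unlabelled reads at 0 min and 9.71% and 11.01% at 30 min. Of 138 genes 136 fell in unlabelled reads and none rose, with a median log2 change of -1.83. RPL41A, the gene with the largest loss past the threshold, went from 339 and 316 unlabelled reads per 1000 spike-in reads to 122 and 120, RPL28 from 193 and 183 to 49.5 and 58.2, and RPS9B from 137 and 161 to 20.5 and 24.6. The 2 members with the smallest p were RPS28B, which fell 8.99-fold, and RPS9A, which fell 7.91-fold. Their summed labelled share went from 63.0% and 62.5% to 58.8% and 59.5%, against 62.2% and 61.9% to 36.3% and 36.5% with glucose. The labelled odds of 85 of the 138 were lower and of 53 not called, beside 4271 lower of 5245 over all genes. In the fit of the 4 compared libraries alone 119 were lower, beside 4429 of 5272 over all genes. The median log2 change of odds was -0.29, and between -0.31 and -0.27 when 1 library was left out. Many of these genes have a near-identical partner, so the values of single members are uncertain where reads were split.

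Translation factors fell with the ribosome: 37 of 43 fell and 3 rose, with a median of -1.55, beside 32.2% and 28.3% of all genes tested. EFB1, an exchange factor of elongation, had 123 and 134 unlabelled reads per 1000 spike-in reads at 0 min and 15.7 and 19.01 at 30 min, and YEF3, the fungal elongation factor 3, 176 and 163 and then 45.4 and 48.7. TEF4, a subunit of the elongation exchange complex, fell 4.81-fold. The 3 that rose were HEF3, a paralogue of YEF3 (2.32), DBP1, a helicase related to DED1 (2.58), and EAP1, which binds the cap factor eIF4E (0.66). Among genes called lower with at least 500 reads in each library, the labelled odds changed least for TIF4631, the scaffold eIF4G (-0.00 ± 0.16, SE), RPL9A (0.01 ± 0.11), RPA190, the largest subunit of RNA polymerase I (-0.01 ± 0.14), GSP1, the Ran GTPase (-0.01 ± 0.12), and RPS16B (0.01 ± 0.12).

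Of the 1742 genes that fell in unlabelled reads and were tested for odds, 778 were not called in the odds, 959 were lower and 5 higher. The 778 had a median log2 change of -1.87 in unlabelled reads, and the 959 one of -1.04. Of the 1496 such genes that rose, 1430 had lower odds, 64 were not called and 2 were higher. Over all genes tested 4271 of 5245 had lower odds (81.4%). The unlabelled reads that sorted these genes also enter the odds, so the counts are a description and not a second test.

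Only 8 genes had higher labelled odds at 30 min. Of these, 5 fell in unlabelled reads: RPC19, RRS1 and DIM1, of ribosome synthesis, GCD2, a subunit of the initiation factor eIF2B, and TOS6. RRS1 went from 14.7 and 16.1 unlabelled reads per 1000 spike-in reads to 1.47 and 1.29, with labelled shares of 62.9% and 59.3% and then 63.9% and 71.2%. RGI2 and DSF1 rose in both pools and began from shares of 26.3% and 8.33% (RGI2) and 0% and 8% (DSF1) in few reads. RGI2 was at 31.5% and 31.1% at 30 min and had 0.266 and 0.453 unlabelled reads per 1000 spike-in reads at 0 min and 11.1 and 11.8 at 30 min. The last, YCL048W-A, had 85 and 100 reads at 30 min. Leaving out 1 library gave between 4 and 11 such genes.

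Other growth functions fell in part. Of 63 amino acid synthesis genes tested 41 fell and 5 rose, with a median log2 change of -0.95. ILV1, threonine deaminase, went from 7.24 and 7.03 unlabelled reads per 1000 spike-in reads to 0.977 and 1.30, and LEU2 rose from 2.39 and 1.87 to 15.4 and 17.7. Of 32 cell cycle regulators 17 fell and 2 rose: the G1 cyclins PCL1 and CLN1 fell 15.4-fold and 8.92-fold, and WHI5, the repressor of cell cycle entry, rose by 2.02 on the log2 scale. Of 24 ergosterol genes 14 fell, led by ERG25 and ERG3 (4.35-fold and 3.83-fold), and 2 rose. With the totals of yeast reads the counts were 25 lower and 14 higher for amino acid synthesis, 14 and 10 for the cell cycle, and 8 and 7 for ergosterol. Over all 5458 genes tested, 1046 were lower and 2826 higher with totals, and 32.2% lower and 28.3% higher with the spike-in. Of 26 membrane and wall genes 9 were higher and 9 lower, beside 28.3% and 32.2% of all genes tested. PMA1, the proton pump, fell by 1.66, and SPI1 and HSP30, stress proteins of the wall and membrane, rose 19.7-fold and 41.7-fold. Of the mating-type markers 6 of 7 a-specific genes fell, led by the receptor STE2 (4.58-fold), and 1 rose, beside 32.2% lower and 28.3% higher of all genes tested. With totals of yeast reads 4 of the 7 fell and 1 rose.

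Of 22 glycolysis and fermentation genes 6 rose and 6 fell, near the 28.3% and 32.2% of all genes tested, with a median log2 change of -0.11, which was 0.01 with TMM factors and 0.58 with totals. PDC1, the main pyruvate decarboxylase, had the second largest loss past the threshold, from 259 and 254 unlabelled reads per 1000 spike-in reads to 96.5 and 122. The isoforms of low abundance at 0 min rose: TDH1 from 0.759 and 0.577 to 15.6 and 12.8, PYK2 from 0.626 and 0.299 to 7.94 and 8.19, and ENO1 by 3.30 on the log2 scale. With totals 11 rose and 1 fell, beside 2826 higher and 1046 lower of all 5458 genes tested. The number that fell was 2 without replicate 1 at 0 min and 1 without replicate 1 at 30 min. Of 41 genes of mRNA decay 15 fell, against 32.2% of all genes tested, and 4 rose, with a median of -0.33, which was 0.35 with totals, where 2 fell and 15 rose. The number that fell was between 8 and 12 with any 1 of the 4 libraries left out. EDC2, an activator of decapping, rose 8.25-fold, and the helicase DHH1 rose by 1.43.

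Among the histone genes HTA1, a histone H2A gene, had 24.6 and 20.3 unlabelled reads per 1000 spike-in reads at 0 min and 44.4 and 43.6 at 30 min (log2 change 0.97 ± 0.26, SE; adjusted p = 0.000393, edgeR). Its labelled reads were 82.8 and 68.5 and then 52.7 and 60.8 (log2 change -0.41; adjusted p = 0.0909, edgeR), and its share went from 77.1% and 77.2% to 54.3% and 58.3%. All reads of HTA1 together changed by 0.04 (adjusted p = 0.895, edgeR). Of 10 histone genes 2 rose in unlabelled reads, HTA1 and HTB1, 1, HTZ1, fell and 7 were not called, beside 28.3% of all genes higher and 32.2% lower. With TMM factors 4 rose and 1 fell. With totals 7 rose and none fell, beside 2826 higher and 1046 lower of all 5458 genes tested. In labelled reads 9 of 10 fell, beside 70.9% of all genes, and all 10 had lower odds, beside 81.4%. The call of HTB1 (0.61, adjusted p = 0.0314, edgeR) was lost when any 1 of the 4 libraries was left out, at adjusted p-values from 0.0966 to 0.117. Reads of histone gene pairs may be split between copies.

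With glucose, the same 30 min added unlabelled reads to most kinds of genes. The sum rose from 28.1 and 41.1 to 67.0 and 58.5 unlabelled reads per spike-in read, by 2.38-fold between the libraries numbered 1 and 1.42-fold between those numbered 2, and the libraries at 0 min differed in all yeast reads per spike-in read (72.1 and 106). In the edgeR fit of all 28 chase libraries, 2793 of 5495 genes rose with glucose (50.8%) and 19 fell (0.346%). The change without glucose minus the change with glucose was higher for 649 genes (11.8%) and lower for 2376 (43.2%), and with TMM factors for 1638 and 1631. All 87 ribosome biogenesis genes and 137 of 138 ribosomal protein genes had a lower change without glucose in that test. RPS9B fell by 2.73 on the log2 scale without glucose and was at 382 and 262 unlabelled reads per 1000 spike-in reads at 30 min with it, from 114 and 185.

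Of the genes that fell without glucose, 1028 rose with it at a difference past the threshold, 133 of them ribosomal protein, 54 ribosome biogenesis and 32 translation factor genes. The opposite held for 7 genes, 4 of them on the list of chaperones: SSA1, HSP82, HSP26 and HSP31. HSP82 rose by 3.01 on the log2 scale without glucose and fell by 1.63 with it, and SSA1 rose by 2.999 and fell by 0.88. The others were YKR075C, CRR1 and YNL134C. HXT6 was at 0.668 and 0.685 unlabelled reads per 1000 spike-in reads at 30 min with glucose and RGI1 at 1.27 and 0.956. Of the stress effectors 36 of 37 had a higher change without glucose, and of the respiratory genes 15 of 43. For the respiratory genes 39 of 43 also rose with glucose, with a median log2 change of 0.98 against 1.56 without it. The comparisons without and with glucose share no library, but the difference uses both.

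The genes were also followed into libraries that did not enter the chase. In the KWY11376 set the groups differed in label as well as in glucose. Reads with a conversion were 49.4% and 50.8% of the total RNA reads with glucose and 1.79% and 1.65% without it. The part of the label in the changes below was not tested. In total RNA of KWY11376 after 30 min without glucose against total RNA with glucose (2 libraries each, all reads, TMM factors), 1628 of 5540 genes were higher (29.4%) and 1625 lower (29.3%) in edgeR's test. Of the 1542 genes that rose in unlabelled reads 1036 were higher there and 77 lower, with a median log2 change of 1.08. Of the 1757 that fell 119 were higher and 1025 lower, with a median of -0.76. Leaving out 1 total RNA library at a time gave 907 to 983 higher and 38 to 69 lower for the risen genes, and 60 to 119 higher and 749 to 923 lower for the fallen genes. When each library was scaled by its total instead, the counts were 791 higher and 158 lower for the risen genes, and 43 and 1289 for the fallen genes. In total RNA of KWY165 without 4TU, with 1 library per condition and therefore no test, 1378 of 1534 of the risen genes were higher and 1411 of 1757 of the fallen genes lower, beside 2980 of 5432 higher and 2452 lower over all genes. Of 138 ribosomal protein genes 39 were higher in total RNA of KWY11376 and 12 lower, with a median of 0.20, where 136 fell in unlabelled reads per spike-in read. Total RNA values compare each gene with the other mRNAs of its library and not with a spike-in, and the strain differs. In unlabelled reads of the chase, 136 of the 138 were lower with TMM factors too (median -1.72). With the totals of yeast reads 127 were lower (median -1.15). The difference between the sets was not tested.

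In the same strain, the reads of polysomes over those of total RNA were compared between the conditions. The ratio changed upward for 452 of 5540 genes (8.16%) and downward for 444 (8.01%). Of the genes that rose in unlabelled reads 255 shifted toward polysomes and 40 away, with a median log2 change of 0.29, and of those that fell 79 and 278, with a median of -0.27. Hexose transport and phosphorylation genes shifted toward polysomes in 13 of 18 cases and ribosomal protein genes away from them in 110 of 138. Without replicate 1 of the total RNA without glucose the counts were 112 and 13 for the risen and 34 and 134 for the fallen genes, and without replicate 2 of that group they were 148 and 10, and 25 and 168. With library totals they were 147 and 46, and 34 and 309. The remaining 1247 of the 1542 risen genes were not called in either direction. Label differed here too: reads with a conversion were 31.1% and 25.9% of the polysome reads with glucose and 1.57% and 1.58% without it. Its part in the shifts was not tested.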

How the data were processed

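Of the chase, 28 SLAM-seq libraries of KWY165 (2 per time and condition) were used, with 8 libraries with 4TU of KWY11376 (total RNA or polysomes, 2 per group) and 2 of total RNA without 4TU. RNA was alkylated with iodoacetamide and 3′ end libraries were made, per the labels' protocols. The deposited tables give whole-number counts of reads and of reads with T-to-C conversions per feature, and their headers name slamdunk 0.4.3, per the file headers. Per the submitters' processing notes, featureCounts, TopHat2, Bowtie and cutadapt were also used, with no version or sample given. The genome build, the use of strand and the conversions that make a read labelled were not stated there. Names of 5558 of the 5560 features matched a gene table.

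Unlabelled reads (all minus converted) were tested in edgeR 4.0.16 (R 4.3.3) with the robust quasi-likelihood test, the spike-in reads as library size, the expression filter and Benjamini-Hochberg adjustment at 0.05. The 14 libraries without glucose entered the fit, and all 28 the difference from glucose. Of 9 spike-in features 6 had reads. Labelled odds were tested with 2 columns for each library, 1 of labelled and 1 of unlabelled reads, and an intercept for each library, on genes with a mean of at least 50 reads. The fall of the labelled share was described, not tested. Total RNA and polysomes used all reads with TMM factors, in 1 fit. Alternatives, some with DESeq2 1.42.0, are given in the closing section. On simulated data with 200 genes changed by a log2 of 1 or 2, the test of unlabelled reads recovered 64% and 100%, and that of odds 33% and 96%. That of the difference recovered 16% and 87%, that of total RNA 45% and 100% and that of polysomes 9% and 91%. No call had the wrong sign. The simulated rises and falls were balanced and every gene had the same extra spread, so a shift of many genes at once was not simulated.

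The comparison, gene lists and rules were chosen with earlier results of these data known. Named were the 10 genes with the largest log2 rise, fall, gain and loss among those past the threshold, with separate libraries, a mean of at least 100 unlabelled reads and at most 20% multimapped reads, the 2 genes of smallest p in each list, and 5 genes each with the least changed odds or the largest fall of share, 81 in all. Other members of the lists were named after their values were seen, as were the genes called higher in odds or changed in opposite directions with and without glucose. Figures used matplotlib 3.10.9. No sequence of a promoter or protein was used. The result of 1 gene is not reported here.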

Additional observations from a re-analysis of the deposited data

Results flagged for a closer look

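The change of unlabelled reads over 30 min differed between the conditions in edgeR's test of the difference itself, in 649 genes with a higher and 2376 with a lower change without glucose. Of these, 1028 fell without glucose and rose with it, and 7 did the opposite. The differences of log2 change (without minus with glucose) of the named genes among the 1028 were -4.88 for RPA12, -4.18 for ALB1, -4.38 for RRS1, -4.38 for TSR2, -4.18 for RIX7, -4.64 for NOP1 and -4.14 for NRP1, all genes of steep fall. For the large losses they were -2.38 for RPL41A, -2.92 for RPL28, -3.83 for RPS9B, -2.78 for YEF3, -2.68 for RPL36B, -2.40 for RPS31, -3.58 for EFB1, -3.18 for RPP1B and -2.47 for RPL40A. For the 7 genes that went the other way they were 3.88 for SSA1, 3.06 for HSP26, 2.32 for HSP31, 6.81 for YKR075C, 2.94 for CRR1, 2.81 for YNL134C and 4.64 for HSP82. The libraries with glucose differed at 0 min in all reads per spike-in read (72.1 and 106), and the part of this in the counts was not tested.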

How the results depend on the processing

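Of 81 named genes, over 15 alternative settings of the change in unlabelled reads, 1201 of 1215 values kept their direction and side of the threshold. Most of these genes were picked by the same values, so their agreement is no further test and does not speak for other genes. Against the 1542 genes higher and 1757 lower, the totals of yeast reads gave 2826 and 1046, all reads 967 and 2869, and labelled reads, chosen after seeing the data, 514 and 3882. The values that reversed were HTA1 at -0.41 and HTB1 at -0.53 with labelled reads, HTB1 at -0.13 with all reads, and SAG1 at -0.51 with all and -1.05 with labelled reads. TMM factors gave 1906 and 1770, DESeq2 1490 and 1715. The 8 genes with higher odds became 5 with a mean of at least 200 reads and 15 in a fit of the 4 libraries alone. The 649 genes with a higher change without glucose became 1638 with TMM factors and 1548 with totals, the 1628 higher in total RNA became 1052 with library totals, and the 452 shifted toward polysomes 224. The cause was not tested. The median fall of the labelled share, 29.5%, was 38.5% for conversions per covered T and 29.6% with the spike-in background subtracted, an alternative also added after seeing the data. Leaving out 1 library at a time gave 1136 to 1450 genes higher and 1417 to 1606 lower in unlabelled reads, 4 to 11 higher in odds, 179 to 493 shifted toward polysomes and 178 to 487 away; the low ends for polysomes came without replicate 1 of total RNA without glucose. A group left with 1 library was assumed to vary like the others. With the replicate number as a block, 1651 genes were higher and 1858 lower. The numbers did not pair the libraries: the deviations of the same number at 0 and 30 min correlated at -0.08, and over 0.1 in 9 of 21 pairs of times. Changes of a log2 of 1 in single genes were often missed at this depth and spread.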
